A study of Mus musculus with 16 samples.

Results

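The genes described here encode 9 proteins by which astrocytes recognise and take up cell debris and synapses: the receptors Megf10, Mertk and Axl, the integrin subunits Itgav and Itgb5, the cytoplasmic adaptor Gulp1, and the bridging proteins Gas6, Pros1 and Mfge8. The genes were picked by name, without a threshold on their values but with earlier results of these data known. All 9 were found by symbol among the 17097 genes of the deposited tables and passed the filter on low counts in every comparison. The study asked how the RNA of striatal astrocytes responds when Gi signalling is activated, as its title says. Male C57BL/6J mice, labelled wild-type and aged 63 days, were given clozapine N-oxide (CNO), a ligand used to activate designer receptors, at 1 mg/kg, or vehicle, and whole striata were taken 2 h later. RNA of each mouse came from the cleared lysate (input) and from ribosomes pulled down through a hemagglutinin tag (immunoprecipitate, IP), which the series text describes as carried by astrocytes. The 16 libraries form 4 groups of 4: vehicle IP, CNO IP, vehicle input and CNO input, with replicate numbers 2 to 5.

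The labels name neither the designer receptor, nor the promoter or vector that carried it and the tag, and CNO-treated mice without the receptor were not analysed here. The titles carry 8 mouse codes, 4 for each injection, while the series text speaks of 4 mice. The codes were taken as animals, and if they are not, the p-values reflect no more than the spread among these libraries. The depth was 32.8 to 40.3 M reads per input library and 52.1 to 61.5 M per IP library. The labelled cell type was checked on markers: 12 of 12 astrocyte markers were higher in vehicle IP than in vehicle input by limma (median log2 difference 2.96), and 16 of 16 microglial and macrophage, 13 of 13 endothelial and 9 of 9 medium spiny neuron markers were lower (medians -4.37, -2.75 and -1.60). Among the markers of the ependyma 6 of 6 were higher in IP, and among those of the oligodendrocyte lineage 7 of 9. No marker of any of these lists was at 0 in all 4 libraries of a group. Vehicle IP replicates 3 and 5 stood apart within their group: the oligodendrocyte markers summed to 5951 CPM (reads per 1000000 of library size) in replicate 3 and 14122 in replicate 5, against 10315 and 10604 in the others, and the microglial markers to 76.5 and 125 CPM, against 105 and 99.6. Replicate 5 also had the lowest astrocyte marker sum of its group, 30934 CPM, against 35038 to 37510.

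The genes lie on 6 chromosomes, by the GENCODE M21 annotation on GRCm38, and all are protein coding. The receptors are Megf10 (ENSMUSG00000024593.15, chromosome 18, 57133090 to 57297467, plus strand), Mertk (ENSMUSG00000014361.5, chromosome 2, 128698956 to 128802894, plus) and Axl (ENSMUSG00000002602.16, chromosome 7, 25757273 to 25788705, minus). The integrin subunits are Itgav (ENSMUSG00000027087.11, chromosome 2, 83724397 to 83806916, plus) and Itgb5 (ENSMUSG00000022817.15, chromosome 16, 33829665 to 33949338, plus). The adaptor is Gulp1 (ENSMUSG00000056870.9, chromosome 1, 44551511 to 44796838, plus). The bridging proteins are Gas6 (ENSMUSG00000031451.6, chromosome 8, 13465374 to 13494490, minus), Pros1 (ENSMUSG00000022912.8, chromosome 16, 62854307 to 62929346, plus) and Mfge8 (ENSMUSG00000030605.15, chromosome 7, 79133768 to 79149060, minus). Exons of Gas6 overlap the span of Tmem255b on the other strand, a gene that stood at 1.05 to 1.77 CPM in every library. Exons of Mertk, Itgav and Gulp1 overlap the spans of gene models without a proper name. No source used here gives the strand setting of the counting, and reads of such overlaps may be shared.

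A dying cell or a synapse marked for removal exposes phosphatidylserine on the outer face of its membrane. Soluble bridging proteins bind this lipid and hold it against receptors of the engulfing cell: Gas6 and protein S (the product of Pros1) bind the receptor tyrosine kinases of the TAM family (Tyro3, Axl and Mertk), and Mfge8 binds the integrin made of the alpha v and beta 5 chains. Megf10 is a scavenger-like receptor that works with the adaptor Gulp1, and Megf10 and Mertk are known from astrocytes that take up synapses in the developing and adult brain.

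The promoters of the 3 genes with the largest CNO differences in IP, Pros1, Itgb5 and Gas6, are shown so that the letters upstream of a gene that rose and of 2 that fell can be set side by side. Each sequence is the 250 bases before the RefSeq start on GRCm38.p6, 5′ to 3′ on the gene's own strand: chr16:62854057-62854306 (plus) for Pros1, chr16:33829415-33829664 (plus) for Itgb5 and chr8:13494536-13494785 (minus) for Gas6. Capitals mark GC boxes, the letters GGGCGG or, on the other strand, CCGCCC, with overlapping matches counted.
Pros1: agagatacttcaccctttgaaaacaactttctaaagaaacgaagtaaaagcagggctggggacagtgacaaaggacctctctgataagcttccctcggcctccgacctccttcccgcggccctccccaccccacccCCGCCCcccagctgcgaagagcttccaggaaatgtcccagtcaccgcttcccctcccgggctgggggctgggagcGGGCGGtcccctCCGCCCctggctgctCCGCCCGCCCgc
Itgb5: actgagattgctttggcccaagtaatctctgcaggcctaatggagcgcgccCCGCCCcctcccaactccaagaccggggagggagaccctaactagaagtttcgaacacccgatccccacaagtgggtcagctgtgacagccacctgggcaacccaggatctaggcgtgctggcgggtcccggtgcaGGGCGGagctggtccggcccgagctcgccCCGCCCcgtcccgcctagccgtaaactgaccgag
Gas6: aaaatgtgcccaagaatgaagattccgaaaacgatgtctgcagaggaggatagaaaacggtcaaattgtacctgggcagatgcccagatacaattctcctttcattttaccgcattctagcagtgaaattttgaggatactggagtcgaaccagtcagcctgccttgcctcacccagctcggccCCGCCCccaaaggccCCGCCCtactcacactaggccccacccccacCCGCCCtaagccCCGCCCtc
The RefSeq table matched 8 of the 9 genes, all but Megf10. A GC box was found in 7 of the 8 promoters (5 in Pros1, 4 in Gas6 and Mfge8, 3 in Itgb5 and Mertk, 1 in Axl and Gulp1, 0 in Itgav) and in 32.7% of all 32851 promoters of that length. The GC content of the 8 was 54.8 to 65.2%, against a median of 52.4% over all promoters. The letters of an AP-1 site (TGANTCA), a CRE half-site (TGACG), the CCAAT box and a TATA box (TATAAA) were in 0 of the 8 on either strand, and in 6.75%, 17.8%, 33.8% and 12.4% of all promoters. These matches describe the letters of these windows only.

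The first comparison set IP against input within the vehicle mice. Of the 9 genes, 8 were higher in IP by limma with Benjamini-Hochberg adjustment at 0.05, against a background of 37.7% of the 15872 genes tested called higher and 74.9% called in either direction. The 4 IP libraries lay above the 4 input libraries for the same 8 genes (69% of all genes had groups that did not overlap, in either direction). The median log2 difference of the 9 was 1.87, and that of all genes tested 0.01. Both fractions came from the same mice, so this difference describes what the pull-down held relative to the lysate. For CNO against vehicle, described below, more cells of a type and more RNA per cell cannot be told apart within bulk RNA.

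The receptors were among the most IP-rich of the set. Megf10 stood at 244.5, 230.7, 239.6 and 223.9 CPM in vehicle IP (replicates 2, 3, 4 and 5 here and below) and at 42.1, 45.8, 33.6 and 33.8 CPM in vehicle input. Every IP library was thus far above every input library, a 6.10-fold difference (log2 2.61, SE 0.10, limma adjusted p = 2.60e-08). Axl, the TAM receptor that depends on Gas6, was 4.42-fold higher in IP (243 ± 7.15 against 55.8 ± 12.01 CPM, SD, n = 4; log2 2.15, SE 0.13). Mertk, the TAM receptor that binds both Gas6 and protein S, was 4.28-fold higher (log2 2.10, SE 0.13), although its IP level was uneven: 210.8, 211.5 and 216.5 CPM in replicates 2 to 4 and 144.8 CPM in replicate 5. The third TAM receptor, Tyro3, went the other way, at 161 CPM in IP and 261 CPM in input (log2 -0.70, SE 0.06, limma adjusted p = 5.52e-06).

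The integrin subunits were less IP-rich. Itgav, the alpha v chain, was 2.46-fold higher in IP (450 ± 26.7 against 183 ± 11.1 CPM, SD, n = 4; log2 1.30, SE 0.06). Itgb5, the beta 5 chain, had the smallest called difference, 1.88-fold (143 ± 7.84 against 77.5 ± 19.04 CPM; log2 0.91, SE 0.16, limma adjusted p = 7.61e-04). Gulp1 was the gene of the set that was not called: it stood at 18.1, 17.2, 16.3 and 17.0 CPM in IP and at 16.9, 18.9, 16.3 and 15.2 CPM in input. These groups overlap throughout (log2 0.03, SE 0.08, 95% interval -0.14 to 0.20, limma adjusted p = 0.729), and its sign depended on the scaling: the log2 difference was -0.13 with upper-quartile scaling and -0.24 with libraries scaled by total reads.

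All 3 bridging proteins were IP-rich. Gas6 was 3.66-fold higher in IP (529 ± 59.5 against 144 ± 14.6 CPM, SD, n = 4), Mfge8 4.26-fold (475 ± 88.9 against 110 ± 10.7 CPM) and Pros1 3.58-fold (117 ± 27.2 against 33.1 ± 10.8 CPM), with log2 differences of 1.87, 2.09 and 1.84. Pros1 had the widest error of the 9 genes in this comparison (SE 0.24), and its spread was shared by both fractions: replicate 5 was highest and replicate 3 lowest in IP and in input. In vehicle input, Itgb5, Axl and Gas6 also ran from lowest to highest in the order of the microglial marker sum (replicates 3, 4, 2, 5; sums 967, 1618, 1704 and 2481 CPM), an order picked out after the values were seen, and its part in these levels was not tested.

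**Figure D1:**
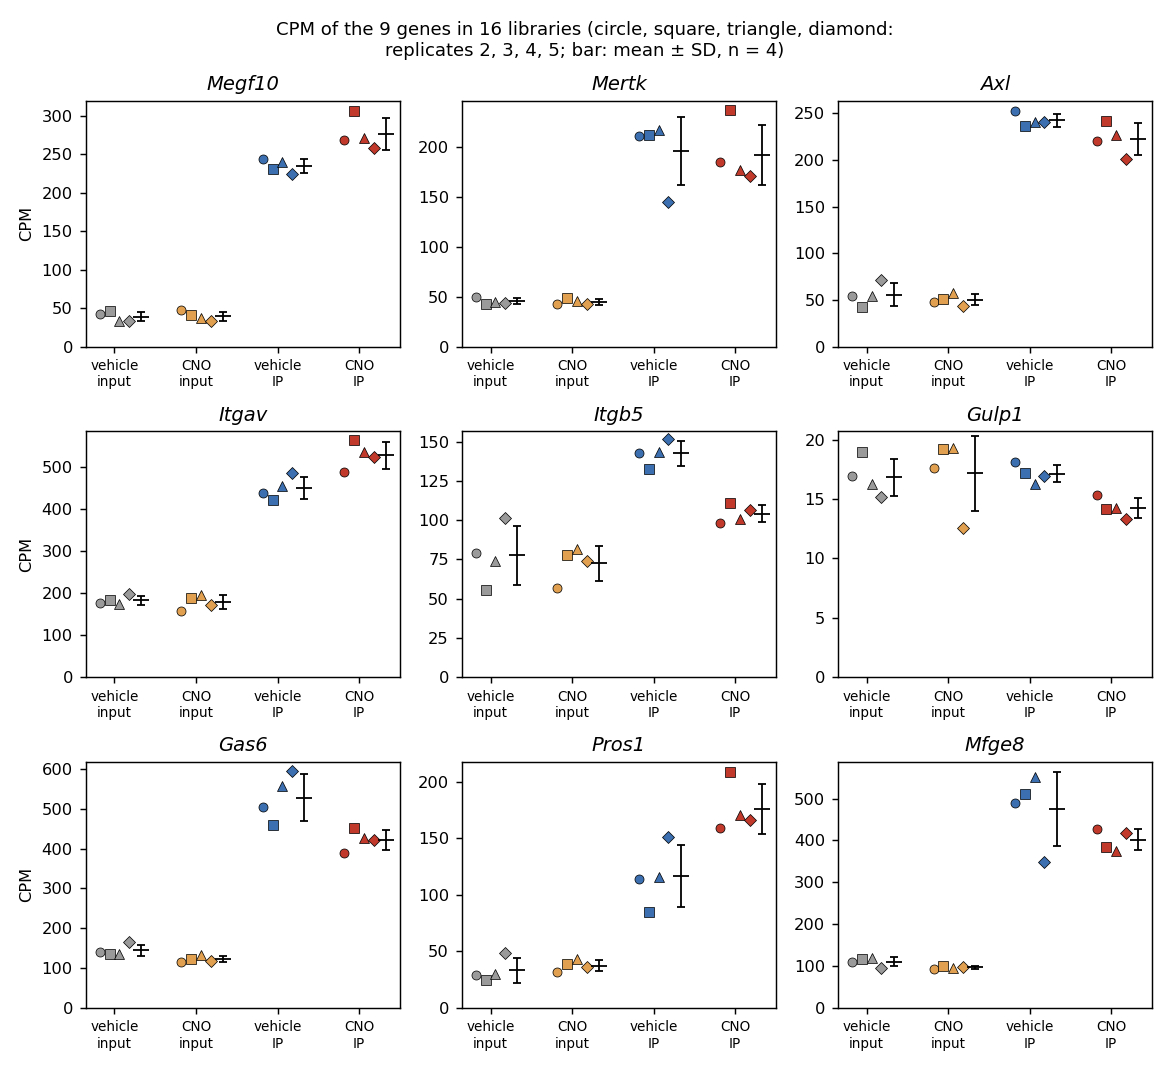
CPM (linear axis from 0, one panel per gene) of the 9 genes in the 16 libraries, by group, with symbols for replicates 2 to 5 and bars for the mean ± SD (n = 4). The IP libraries lie above the input libraries for 8 genes and overlap them for Gulp1, and CNO IP lies apart from vehicle IP for Megf10, Itgav, Itgb5, Gulp1, Gas6 and Pros1.

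Levels of different genes can be compared only per transcript length, here CPM per kilobase of annotated exon. On that scale Gas6 was the most abundant of the set in vehicle IP, at 207 CPM per kb, followed by Mfge8 at 101.2, Axl at 48.2, Mertk at 45.2, Itgav at 41.9, Itgb5 at 40.1, Megf10 at 30.4, Pros1 at 28.5 and Gulp1 at 4.56. Not every step of that order exceeded the spread between libraries: Axl and Mertk, Mertk and Itgav, Itgav and Itgb5, and Megf10 and Pros1 overlapped. The 4 libraries did not overlap between Gas6 and Mfge8, Mfge8 and Axl, Itgb5 and Megf10, or Pros1 and Gulp1. Megf10, the most IP-rich of the 9, was thus only the seventh most abundant per kilobase.

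The same comparison within the CNO mice gave the same calls. Of the 9 genes, 8 were higher in IP (background 40% of 15819 genes tested called higher, 75% in either direction) and the same 8 had groups that did not overlap (background 70%), with a median log2 difference of 2.06 against 0.04 over all genes. The log2 differences were 2.81 for Megf10, 2.08 for Mertk, 2.15 for Axl, 1.57 for Itgav, 0.54 for Itgb5, 1.79 for Gas6, 2.24 for Pros1 and 2.06 for Mfge8 (limma, adjusted p at most 9.68e-04, that of Itgb5). Itgb5 rested on the scaling here: with total-read scaling its log2 difference was 0.22 and its adjusted p by limma 0.0501. Gulp1 stood lower in IP, at 14.3 ± 0.822 against 17.2 ± 3.15 CPM (SD, n = 4; log2 -0.25, SE 0.13, limma adjusted p = 0.105). The IP and input libraries of a mouse deviated together, and with the mouse as a replicate block Gulp1 passed as lower in IP (adjusted p = 0.0297 by limma). It also passed with upper-quartile or total-read scaling, at log2 -0.47 and -0.56, and without CNO input replicate 5, its lowest input library at 12.6 CPM against 17.6 to 19.3 in the others (log2 -0.39, adjusted p = 0.00122 by limma).

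The ratio of IP to input was also taken within each mouse, and it varies with the input as well as with the IP. For Megf10 it was 5.04 to 7.13 in the vehicle mice and 5.70 to 7.89 in the CNO mice, and for Mertk 3.29 to 4.93 and 3.86 to 4.81. For Itgav the ranges did not meet, 2.30 to 2.63 in vehicle and 2.74 to 3.09 in CNO mice, nor did those of Pros1, 3.10 to 3.92 and 3.98 to 5.38 (14.3% of all genes had ratios that did not overlap). The ranges of the 7 remaining genes overlapped, Megf10 and Mertk among them: Axl 3.36 to 5.56 and 3.93 to 4.71, Itgb5 1.49 to 2.40 and 1.24 to 1.74, Gulp1 0.909 to 1.12 and 0.737 to 1.06, Gas6 3.40 to 4.10 and 3.21 to 3.65, and Mfge8 3.64 to 4.66 and 3.84 to 4.60. In both arms Megf10 had the highest mean ratio and Itgb5 and Gulp1 the lowest.

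**Figure D2:**
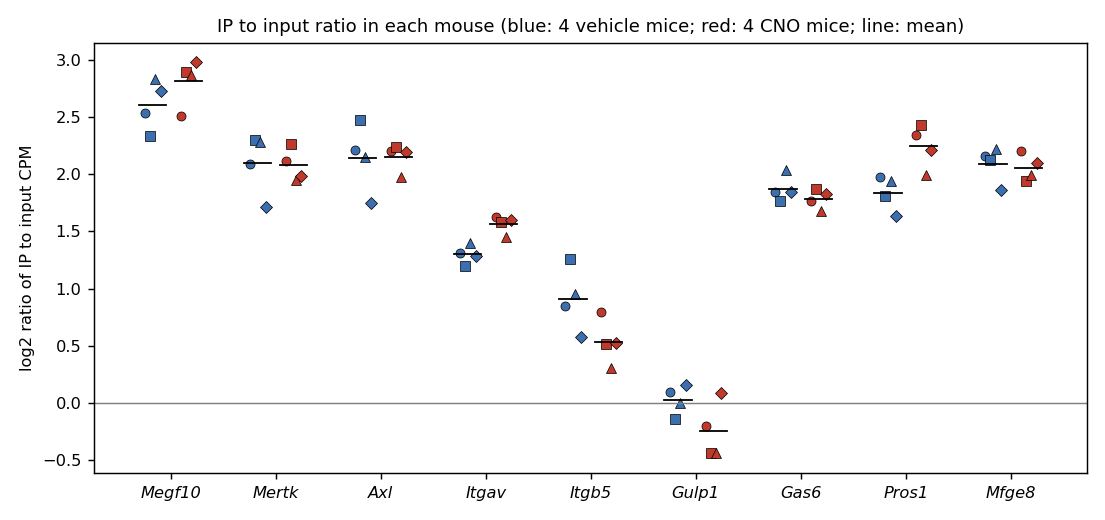
Log2 ratio of IP to input CPM in each mouse for the 9 genes, vehicle mice in blue and CNO mice in red, with a line at the mean of 4 mice and circle, square, triangle and diamond for replicates 2, 3, 4 and 5. Megf10 is the highest in both arms, Gulp1 lies about 0, and the arms separate for Itgav and Pros1.

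The next comparison set CNO against vehicle within IP, 2 h after injection. Of the 9 genes 6 were called by limma, 3 higher (Pros1, Megf10 and Itgav) and 3 lower (Itgb5, Gas6 and Gulp1). The background was 17.3% of 15602 genes tested called in either direction, 10.2% higher and 7.08% lower. The set was chosen with earlier results of these data known, so its share beside this background is no independent test. The 6 called genes were also those whose groups did not overlap, and 22.9% of all genes had groups that did not overlap. Higher genes made up 59.2% of all calls, a share that was 38.8% with upper-quartile scaling and 44.5% with total-read scaling, while the directions of the 9 genes were as given under all 3 scalings. The median log2 difference of the 9 was -0.13, against -0.01 over all genes.

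Among the ligands of the TAM receptors, Pros1 and Gas6 moved in opposite directions. Pros1 stood at 114.4, 84.8, 116.0 and 151.4 CPM in vehicle IP and at 159.3, 208.5, 170.5 and 166.6 CPM in CNO IP. The lowest CNO library lay just above the highest vehicle library, replicate 5, and the rise was 1.53-fold (log2 0.62, SE 0.16, limma adjusted p = 0.0328), the largest of the set. Gas6 stood at 504.0, 458.8, 556.9 and 594.4 CPM in vehicle IP and at 388.4, 451.4, 428.0 and 421.2 CPM in CNO IP. Its groups came close, 451.4 against 458.8 CPM, both in replicates numbered 3, and the mean fell to 0.802 of the vehicle level (log2 -0.32, SE 0.08, limma adjusted p = 0.0315). Mfge8, the ligand of alpha v beta 5, stood at 490.5, 510.6, 552.2 and 347.6 CPM in vehicle IP and at 427.5, 384.5, 375.1 and 418.9 CPM in CNO IP. Its vehicle replicate 5 lay below all CNO libraries and the other 3 above them (log2 -0.22, 95% interval -0.53 to 0.08, limma adjusted p = 0.315). Without that library Mfge8 passed as lower (log2 -0.37, adjusted p = 0.00544 by limma).

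The calls of Pros1 and Gas6 each depended on single libraries. That of Pros1 was lost without any 1 of the 4 CNO IP libraries or without vehicle IP replicate 2 or 4, with adjusted p by limma of up to 0.0842, while its log2 difference stayed between 0.47 and 0.75. That of Gas6 was lost with replicate 2, 4 or 5 of CNO IP or replicate 2 or 4 of vehicle IP left out, with adjusted p by limma of up to 0.0936 and log2 differences from -0.38 to -0.26. Both also missed the threshold without the trend and robust settings (0.0502 for Pros1 and 0.0503 for Gas6).

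The 2 chains of the integrin also moved apart. Itgb5 stood at 143.1, 132.6, 143.2 and 151.7 CPM in vehicle IP and at 98.3, 111.0, 101.0 and 106.5 CPM in CNO IP. The gap between the groups exceeded the range within either, and the level fell to 0.731 of vehicle (log2 -0.45, SE 0.06, limma adjusted p = 5.69e-04). Itgb5 was called in all 15 alternative fits, with each library left out in turn among them. Itgav stood at 438.9, 421.8, 454.9 and 484.5 CPM in vehicle IP and at 487.8, 564.4, 536.7 and 522.6 CPM in CNO IP, so that the lowest CNO library lay just above the highest vehicle library (1.17-fold, log2 0.23, SE 0.06, limma adjusted p = 0.0331). Its call was lost with replicate 3, 4 or 5 of CNO IP or replicate 2, 3 or 4 of vehicle IP left out (adjusted p by limma up to 0.102), and with upper-quartile or total-read scaling (0.0705 and 0.0564).

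Of the receptors, Megf10 rose and neither TAM receptor was called. Megf10 stood at 268.9, 306.0, 270.7 and 258.1 CPM in CNO IP, each above the highest vehicle IP library, 244.5 CPM (1.17-fold, log2 0.23, SE 0.06, limma adjusted p = 0.0279). The call was lost with replicate 2 or 4 of CNO IP left out, or any 1 of the 4 vehicle IP libraries (adjusted p by limma up to 0.0625), and with upper-quartile or total-read scaling (0.0879 and 0.0534). Mertk stood at 184.8, 236.3, 176.5 and 171.0 CPM in CNO IP, which overlaps its vehicle range, and the interval of its difference was wide (log2 -0.02, 95% interval -0.36 to 0.32, limma adjusted p = 0.956), at -0.16 and still not called without vehicle IP replicate 5. Axl stood at 220.3, 242.4, 227.3 and 201.5 CPM in CNO IP against 236.5 to 253.1 CPM in vehicle IP (log2 -0.13, 95% interval -0.26 to 0.01, limma adjusted p = 0.194). Of its CNO libraries 3 lay below all vehicle libraries and 1, replicate 3, did not. Gulp1, the adaptor, stood at 15.4, 14.1, 14.2 and 13.4 CPM in CNO IP, all below the lowest vehicle IP library, 16.3 CPM. It fell to 0.831 of the vehicle level (log2 -0.27, SE 0.06, limma adjusted p = 0.0161), a call that was lost when vehicle IP replicate 2 was left out (adjusted p = 0.0590).

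Markers of other cells were set beside these differences. The 16 microglial and macrophage markers summed to 76.5 to 125 CPM in vehicle IP and 88.2 to 102 CPM in CNO IP, the 12 astrocyte markers to 30934 to 37510 and 32314 to 35792 CPM, and the 9 oligodendrocyte lineage markers to 5951 to 14122 and 7926 to 10512 CPM. Those sums overlapped between the arms, as did those of the ependyma (190 to 264 and 152 to 193 CPM) and endothelium (29.8 to 38.3 and 26.5 to 31.4 CPM). In the ependymal and endothelial lists 0 genes were called, but the median log2 differences were -0.36 and -0.30. The microglial Cd68 was called higher (from 2.49 to 5.56 CPM, limma adjusted p = 1.79e-04). The astrocytic Gja1 and S100b, which overlaps Dip2a, were called lower (log2 -0.30 and -0.22, limma adjusted p = 0.0247 and 0.0461). The sums of the 8 pericyte and mural markers did not overlap, at 197 to 202 CPM in vehicle IP and 135 to 155 CPM in CNO IP. Most of that gap lay in Pdgfrb, called lower (from 63.3 to 25.4 CPM, limma adjusted p = 7.13e-04), and Notch3, not called (99.6 and 83.6 CPM), and both were higher in vehicle IP than in input (log2 1.49 and 3.06). The remaining markers of this list, Rgs5 (log2 -0.07), Vtn (-0.06), Abcc9 (0.18), Kcnj8 (0.52), Acta2 (-0.54) and Myh11 (-0.08), were not called. The part of these cells in the differences of the 9 genes was not tested. Without vehicle IP replicate 3 and without replicate 5, the libraries that stood apart, the log2 differences of the 6 called genes kept their signs: 0.47 and 0.75 for Pros1, 0.22 and 0.21 for Megf10, 0.20 and 0.27 for Itgav, -0.49 and -0.42 for Itgb5, -0.38 and -0.26 for Gas6, and -0.26 and -0.27 for Gulp1.

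**Figure D3:**
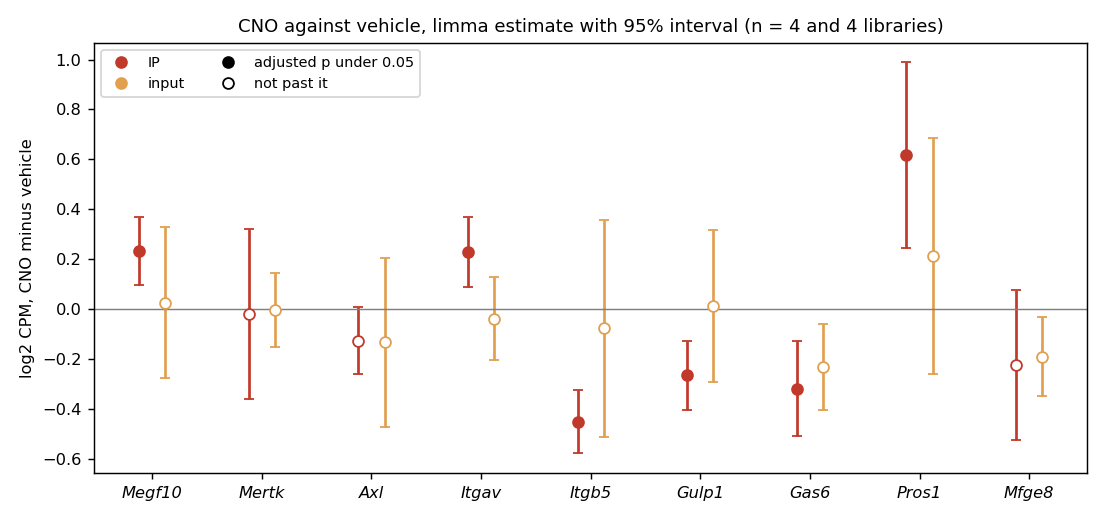
Difference in log2 CPM between CNO and vehicle for the 9 genes, in IP (red) and input (orange), with the 95% interval of limma (n = 4 and 4 libraries) and filled points for adjusted p under 0.05. In IP, Pros1 (0.62), Megf10 and Itgav (0.23 each) lie above 0, and Itgb5 (-0.45), Gas6 (-0.32) and Gulp1 (-0.27) below it, and no input point is filled.

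Because each pair of partners was measured in the same libraries, their CPM ratio shows the shift without the scaling of the library. The pairs were chosen after the values had been seen, the ratios are not corrected for length, and no test is given. The ratio of Gas6 to Pros1 was 4.64 ± 0.628 in vehicle IP (range 3.93 to 5.41) and 2.41 ± 0.169 in CNO IP (2.16 to 2.53; SD, n = 4). The ratio of Itgav to Itgb5 was 3.16 ± 0.0585 in vehicle IP (3.07 to 3.19) and 5.07 ± 0.180 in CNO IP (4.91 to 5.31). Neither ratio overlapped between the arms. This had to follow, because the IP groups of both partners did not overlap and moved in opposite directions, so it adds no support. The ratio of the integrin chains varied by little within each arm. In input, the ratio of Gas6 to Pros1 was 3.40 to 5.59 in vehicle and 3.11 to 3.63 in CNO libraries, and that of Itgav to Itgb5 was 1.95 to 3.31 and 2.32 to 2.80, so that both overlapped. The ratio of Mertk to Axl overlapped in both fractions, at 0.601 to 0.899 in vehicle IP and 0.777 to 0.975 in CNO IP.

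**Figure D4:**
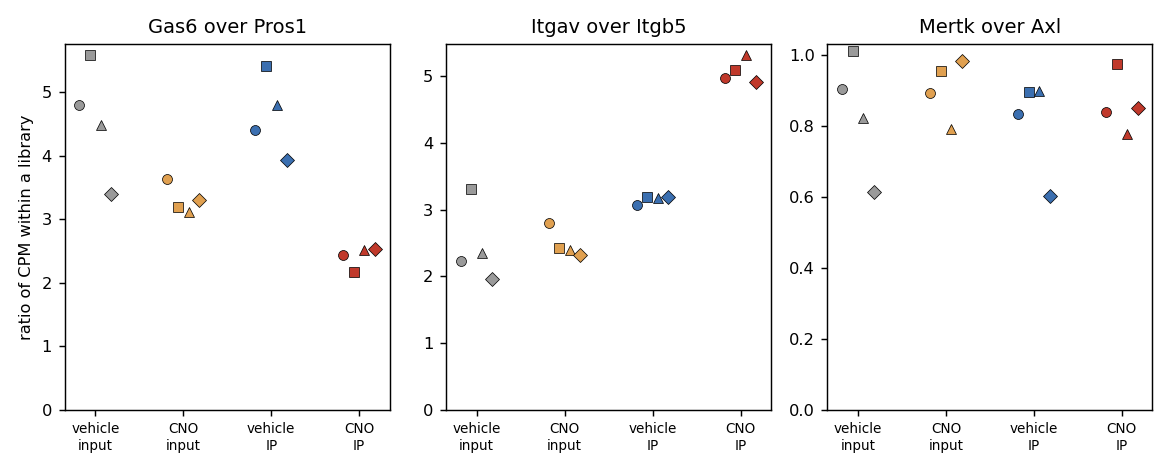
Ratio of CPM within each library (linear axis from 0) for 3 pairs of partners in the 4 groups, with circle, square, triangle and diamond for replicates 2, 3, 4 and 5. In IP the ratio of Gas6 to Pros1 falls from 3.93 to 5.41 under vehicle to 2.16 to 2.53 under CNO, that of Itgav to Itgb5 rises from 3.07 to 3.19 to 4.91 to 5.31, and that of Mertk to Axl overlaps.

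In input, 0 of the 9 genes were called between CNO and vehicle by limma, against a background of 0.998% of 15825 genes tested (158 genes). At an unadjusted p under 0.05 there were 2, Gas6 and Mfge8, against 10.1% of all genes, and limma-voom on recovered reads also called 0. Gas6 stood at 140.1, 134.9, 135.9 and 165.9 CPM in vehicle input and at 114.0, 123.5, 133.4 and 118.7 CPM in CNO input. It was the 1 gene of the set whose input groups did not overlap (background 7.24%), with the same sign as in IP (log2 -0.23, SE 0.08, limma adjusted p = 0.299). Mfge8 was at 110 ± 10.7 CPM under vehicle and 96.3 ± 3.36 CPM under CNO (log2 -0.19, limma adjusted p = 0.387). The other 7 genes had log2 differences of 0.03 for Megf10, 0.00 for Mertk, -0.13 for Axl, -0.04 for Itgav, -0.08 for Itgb5, 0.01 for Gulp1 and 0.21 for Pros1. Their intervals were wide for some: that of Itgb5 ran from -0.51 to 0.36 and that of Pros1 from -0.26 to 0.69, which include the values seen in IP. Marker sums of 3 lists did not overlap in input: endothelial, 175 to 200 CPM under vehicle and 132 to 162 CPM under CNO, pericyte and mural, 132 to 155 and 113 to 130 CPM, and fibroblast and meninges, 94.3 to 104 and 86.2 to 92.0 CPM. Their part in these values was not tested.

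Whether the CNO difference itself was unlike in IP and input was tested as an interaction over the 16 libraries. By limma 0 of the 9 genes were called (background 4.76% of 16256 genes tested), and 1, Itgav, had an unadjusted p under 0.05, as had 14.9% of all genes. The difference of differences was 0.27 for Itgav (SE 0.10, limma adjusted p = 0.181), 0.40 for Pros1 (SE 0.28, 0.612), -0.37 for Itgb5 (SE 0.20, 0.443) and 0.21 for Megf10, on the log2 scale. It was -0.28 for Gulp1, -0.09 for Gas6, -0.03 for Mfge8, -0.02 for Mertk and 0.01 for Axl, the last with the opposite sign under the other scalings (-0.05 and -0.04). The fit without a block took the libraries of a mouse as independent, although IP and input of a mouse deviated together. With the mouse as a replicate block, which keeps that pairing, 2 genes passed, Itgav and Pros1. Each had an adjusted p of 0.0288 by limma (background 7.63%).

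The other genes of the engulfment pathway were described by lists, chosen by function with earlier results of these data known. In vehicle IP against input 37 of 80 tested genes of the 6 lists were higher and 31 lower, where 37.7% of all genes were higher and 37.2% lower. Of these, other engulfment receptors were mostly lower in IP, 13 of 18 tested, with 4 higher and a median log2 difference of -2.04. The higher ones were led by Ager (2.44), Stab2 (2.10), both under 3 CPM, and Lrp1 (1.76), a large endocytic receptor at 2162 CPM in IP. The lower ones were led by genes known from microglia and macrophages: the lipid sensor Trem2 (-4.56), the scavenger receptor Msr1 (-4.55) and the complement receptor chain Itgam (-4.09). Msr1 was at 0.103 CPM in IP and 1.62 CPM in input (SE 1.15), and below the filter for CNO against vehicle in IP. Trem2, Itgam and the C1q chains named below are also among the microglial markers above. Havcr1 of this list was not found by symbol in the deposited tables, and Timd4 was below the filter. Of the other lists, Tulp1, a bridging protein, was not found either, and Itgb6, an integrin partner, was below the filter. Among other bridging proteins and opsonins 6 of 14 were higher and 4 lower (median 0.19). The lipid carriers Clu (2.74) and Apoe (2.53) and the complement protein C4b (2.52), whose near-identical copy C4a may share its reads, led one side, and the 3 chains of C1q, the complement protein that tags synapses, led the other (C1qa -5.42, C1qc -5.11 and C1qb -5.10).

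Of the machinery inside the engulfing cell, 17 of 24 signalling and phagosome genes were higher in IP and 4 lower (median 0.54; 15 to 17 higher and 4 to 8 lower over the alternatives). Abca1 (2.55), a lipid exporter, Dock1 (2.41), the activator of Rac that acts downstream of several engulfment receptors, and the lysosomal membrane protein Lamp1 (1.37) were the highest. Pld4 (-4.20), Becn1 (-0.69) and Elmo1 (-0.28) were the lowest. Of 5 partners of the integrin chains 2 were higher, Itgb8 (2.32) and Itgb1 (0.80), and 2 lower, Itga5 (-0.85) and Itgb3 (-0.64). Of 13 genes of phosphatidylserine exposure and inhibition of engulfment 4 were higher and 7 lower (3 to 4 and 2 to 9 over the alternatives), led by the scramblase Xkr8 (1.01) and the chemokine Cx3cl1 (-0.75). Of 6 genes of the vitamin K cycle, which makes Gas6 and protein S functional, and of receptor shedding, 4 were higher and 1 lower (1 to 4 and 1 to 2 over the alternatives), led by Nqo1 (1.18) and Vkorc1l1 (-0.38). Dock1, Lamp1 and Becn1 overlap Fam196a, Grtp1 and Cntd1, genes whose reads may be shared with them. The counts in the CNO mice were 4 higher and 12 lower of 18, 8 and 4 of 14, 16 and 3 of 24, 2 and 1 of 5, 5 and 3 of 13, and 4 and 1 of 6, in the same order of lists (all genes 40% higher and 35% lower). Over the alternatives there the signalling list had 13 to 17 higher and 3 to 8 lower, the phosphatidylserine list 2 to 5 and 3 to 8, and the vitamin K list 2 to 4 and 1 to 2.

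Between CNO and vehicle in IP 9 of 79 tested genes of these lists were called, 11.4%, against 17.3% of all genes, and list medians lay between -0.08 and 0.14. Of 17 other receptors, 1 was higher and 1 lower: Cd14 rose from 0.317 to 0.848 CPM (log2 1.57, limma adjusted p = 0.0457, lost in 7 of the 15 alternatives), and Stab2 fell from 2.88 to 0.908 CPM (log2 -1.56, limma adjusted p = 0.00693). Of 14 bridging proteins and opsonins 2 were higher: Thbs1, a thrombospondin that bridges dying cells to integrins, from 1.65 to 62.1 CPM (log2 5.25, limma adjusted p = 3.14e-07), and Calr, an eat-me signal at the cell surface, from 420 to 501 CPM (log2 0.25, limma adjusted p = 0.0168, lost without vehicle IP replicate 4). Of 24 signalling genes, Vav3, a Rac activator, was higher (log2 0.40), and Elmo2, the partner of Dock1, and Pik3c3, the phosphatidylinositol kinase of phagosome maturation, were lower (-0.22 and -0.18). These 3 were called in every alternative.

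The alpha 5 chain Itga5, which pairs with beta 1, rose from 10.2 to 16.9 CPM (log2 0.72, limma adjusted p = 0.00238), and was the 1 gene called of 5 integrin partners. Itgb8, a beta chain that pairs with alpha v, was not called, at 225 and 214 CPM (log2 -0.08). Atp11a, a flippase that returns phosphatidylserine to the inner leaflet, rose from 152 to 241 CPM (log2 0.67, limma adjusted p = 0.00129), 1 of 13 genes of its list. Of the 6 genes of the vitamin K cycle and receptor shedding 0 were called. In input 1 of 80 genes of the 6 lists was called, Thbs1 (log2 1.71, limma adjusted p = 0.00674). In the interaction without the mouse block 3 of 80 were called, against 4.76% of all genes. Each of them was higher: Thbs1 (3.54), Itga5 (0.95, limma adjusted p = 0.00878, lost without the CNO mouse 3) and Atp11a (0.49, limma adjusted p = 0.0401, lost in 9 of the 15 alternatives).

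**Figure D5:**
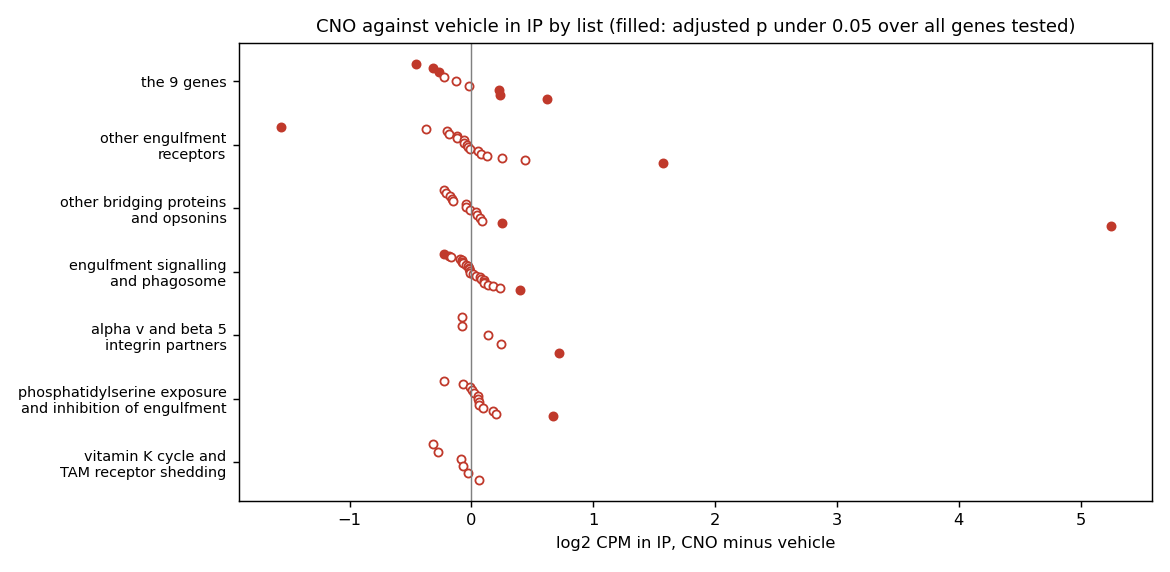
Difference in log2 CPM between CNO and vehicle in IP (linear axis) for each tested gene of the 9 and of the 6 pathway lists, 1 point per gene, filled for adjusted p under 0.05 over all genes tested. The 9 genes lie between -0.45 and 0.62, and the points farthest from 0 belong to Thbs1 (5.25), Cd14 (1.57) and Stab2 (-1.56).

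The genes whose profiles over the 16 libraries were most like those of the 9 were found among 10447 genes of at least 10 CPM on average, by the root mean square difference in log2 CPM after centring each gene on its own mean. The nearest genes were Phka1 (0.11) for Megf10, Bcar3 and Abhd3 (0.13 each) for Mertk, and Athl1 (0.09) and Naprt1 (0.12) for Axl. For the integrin subunits they were Calu (0.06) and Tmem43 (0.08) for Itgav, and Cotl1 (0.12) and Pnp (0.13) for Itgb5. Sephs1 (0.11) and Tmem117 (0.12) were nearest to Gulp1. For the bridging proteins they were Chst2 (0.07) and Wipi1 (0.09) for Gas6, Mapkapk3 (0.14) and Tor3a (0.15) for Pros1, and Slc27a1 and Aldh6a1 (0.13 each) for Mfge8. None of the 9 was among the nearest genes of another. The measure takes in IP and input libraries, so likeness in it need not mean a like CNO difference. In IP, the CNO log2 difference was 0.001 for Phka1 and 0.23 for Megf10, but 0.67 for Mapkapk3 and 0.62 for Pros1.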

How the data were processed

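RNA was measured in 16 libraries. Each deposited value is a log2 CPM computed by the authors. The submitters' processing notes name bcl2fastq 2.17, STAR, HTSeq, limma and the build mm10. Annotation and strand setting: not given in the sources used here. Solving each value for a prior count of 0.25 gave whole reads, within 0.01 read, for 100% of values in every library. Normalized library sizes were 0.880 to 1.14 of the read totals, and a gene without reads stands at -7.54. A duplicate line was dropped, and 2 lines that share a symbol are not named.

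The deposited log2 CPM were tested with limma 3.58.1 (R 4.3.3; eBayes with trend and robust settings). A gene was tested if it had 15 reads or more in total and reached, in 4 or more libraries of the fit, a CPM equal to 10 reads in the median library. Benjamini-Hochberg adjustment ran over every tested gene, and 0.05 was the threshold. Two-group fits held only the groups compared, and the interaction held all 16 libraries. CPM in the text is 2 to the power of the deposited value, per kilobase of GENCODE M21 exons where genes are compared. The fits were tested on simulated data.

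IP and input libraries of a mouse deviated together (correlation of deviations 0.189 to 0.547 over 4 vehicle mice and 0.180 to 0.404 over 4 CNO mice), so they are paired by animal. Alternatives were limma-voom on recovered reads, 2 other scalings, no filter, a prior count of 2, no trend or robust setting, a replicate block and each library left out in turn. In the interaction both libraries of each mouse were left out together. The 9 genes are all named. From each list the text names up to 3 called genes a direction by size, and other genes named, such as Tyro3, Itgb8 and the cell markers, were chosen after their values were seen. For the genes with the most similar profiles, 1 result is not reported here. The members and lists were chosen with earlier results of these data known. Promoter sequences are from RefSeq (GRCm38.p6).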

Additional observations from a re-analysis of the deposited data

Results flagged for a closer look

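Mertk in vehicle IP replicate 5 stood far from the rest of its group, at 144.8 CPM against 210.8 to 216.5 CPM in the other 3 libraries. On the log2 scale the gap was 0.934 of the whole range of the group, above Dixon's critical value at 95% for 4 samples. It was 1 of 36 groups of 4 examined, and chance marks about 1 in 20. That library also had the lowest astrocyte marker sum and the highest oligodendrocyte and microglial sums of its group, and their part in the Mertk value was not tested.

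The CNO difference of Itgav was larger in IP than in input by 0.27, and that of Pros1 by 0.40, on the log2 scale. Both passed as interactions in limma with the mouse as a replicate block (adjusted p = 0.0288 each) and not without it (0.181 and 0.612).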

How the results depend on the processing

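Each of the 9 genes was refitted in 15 alternatives per comparison, 135 values in all for each. The side of the threshold was kept, with no called value changing sign, in 134 for IP against input in vehicle mice, 130 in CNO mice, 100 for CNO against vehicle in IP, 135 in input and 133 for the interaction. In CNO against vehicle in IP, 34 values lost their call with the direction kept, and 1 gained it, Mfge8 without vehicle IP replicate 5. The change of direction that reached the threshold was Gulp1 in vehicle mice with total-read scaling, at -0.24 (limma adjusted p = 0.0171). A further 36 values that neither fit called changed sign, and came to lie between -0.13 and 0.06: 2 in vehicle mice (Gulp1, the lowest with upper-quartile scaling), 5 for CNO in IP (Mertk), 17 in input (Megf10, Mertk, Itgav, Itgb5 and Gulp1) and 12 in the interaction (Mertk, Axl and Mfge8). Total-read scaling lowered the median log2 difference of all genes by 0.27 in vehicle mice and by 0.31 in CNO mice, and upper-quartile scaling by 0.16 and 0.22. Higher genes made up 50.3% of calls in vehicle mice (40.6% with upper-quartile and 34.2% with total-read scaling), 53.3% in CNO mice (39.8% and 34.8%) and 88.0% in the interaction (72.7% and 77.6%).

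With a replicate block, the genes called of the 9 in CNO against vehicle in IP were 2, not 6 (Itgb5 and Gulp1), and the genes called of all tested in input were 102, not 158. CNO and vehicle libraries share only a number: those of the same number correlated at -0.168 to 0.178 in IP, where 1 of 4 was closest to its own number, and at -0.315 to 0.0285 in input, where 0 of 4 were. In the interaction the block by mouse raised the calls from 773 to 1240 over all genes and from 0 to 2 of the 9. It changed the call of 1 other value, Gulp1 in CNO mice.

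With 1 library left out at a time, calls over all genes were 11104 to 11649 in vehicle mice, 11176 to 11718 in CNO mice, 1781 to 2958 for CNO in IP and 93 to 182 in input. In the interaction both libraries of 1 mouse were left out at a time, and the calls were 507 to 694. Of the 9 genes, 8 were called in each case in vehicle mice, 8 to 9 in CNO mice, 1 to 6 for CNO in IP, and 0 in input and the interaction. For CNO in IP the count was 1 without vehicle IP replicate 2 (Itgb5; 1781 over all genes), 2 without vehicle or CNO IP replicate 4 and 3 without CNO IP replicate 2 or 5. In input the count over all genes was 93 without CNO replicate 5, 94 without vehicle replicate 2, 100 without vehicle replicate 4 and 103 without CNO replicate 3, and the interaction's was 507 without the vehicle mouse 2. With 4 libraries a group, differences of the size of those in Megf10 and Itgav lie near the threshold, and why calls were lost was not tested. Each of the 9 genes had 560 reads or more in every library.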
